A study of Homo sapiens with 12 samples.

Results

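Mitosis genes were followed as a set of 35 genes, chosen by name among the 23398 gene entries of an RNA-seq count table of human brain microvascular endothelial cells. Their products carry a cell through chromosome condensation, spindle assembly, chromosome separation and the division of the cell body. The set holds 2 genes of the proliferation mark and chromosome structure group, 11 cyclins, kinases and a trigger of mitotic entry, 3 genes around the anaphase promoting complex, 6 kinesin motors, 6 genes of the centromere, kinetochore and passenger complex, and 7 genes of the spindle and of cytokinesis. The cells, primary cells from the supplier Cell Systems, were transfected for 48 hours with siGlut1, an siRNA against the glucose transporter GLUT1, or with a non-silencing siRNA labelled Non-silence. Each siRNA was combined with control glucose or with the treatment labelled HighGlucose, which gave 4 groups of 3 labelled replicates. The sources used here give neither the glucose concentrations nor the length of the high glucose treatment. All cells, the controls included, were therefore transfected cells in culture. Whether replicates were separate cultures is not stated in the labels, and p-values below reflect sample-to-sample spread alone, which could be technical. Replicate 2 of the non-silencing high glucose group equals, for all 35 genes and within 1e-06 counts, the mean of its replicates 1 and 3 in the deposited table. It was left out, which leaves 11 libraries and 2 in that group.

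Most of these genes are silent in resting cells and are switched on together late in the cell cycle, in G2 phase and mitosis. The DREAM complex keeps them off in G1 through a short promoter element called the CHR, and the factors MYBL2 and FOXM1, with NF-Y bound to CCAAT boxes, act when they are on. Endothelial cells of the adult brain divide rarely, while the same cells divide in culture medium, and transcripts of mitosis genes in a culture are made mainly by its dividing fraction. In bulk RNA a smaller share of dividing cells and less RNA per dividing cell cannot be told apart.

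Promoters of 30 of the 35 genes were in the RefSeq table used here (GRCh38.p14), as windows of 300 bases from 250 before to 50 after the start of transcription. Of these, 23 (76.7%) held TTTGAA or TTCGAA, the core letters of the CHR, on either strand, against 16.6% of the windows of 27305 genes. CCAAT stood in 24 of the 30 windows (80%) against 35.7%, and 15 (50%) held at least 2 copies against 11.3%. Both kinds of word were in 19 windows (63.3%) against 6.58%. The E2F words TTTGGCGC and TTTCCCGC were in 2 windows (6.67%) against 2.31%. These are matches of letters, counted on both strands, and a window can hold a CHR word and a CCAAT word that overlap. The first listed start of each gene was used. For 26 of the 30 genes the bases after it lay in a GENCODE transcript of the gene. The 150 bases before the start are shown for 6 genes, so that the letters of genes far from and near to 0 in the comparisons below can be set side by side. ASPM and MKI67 had the lowest values for siGlut1 in control glucose and AURKB and CDCA8 those nearest 0, while PTTG1 and NUSAP1 had the lowest in high glucose. They are written 5′ to 3′ on the strand of the gene, with every CCAAT and every CHR word in capitals, in either orientation.
MKI67 (chr10:128126424-128126573, minus strand): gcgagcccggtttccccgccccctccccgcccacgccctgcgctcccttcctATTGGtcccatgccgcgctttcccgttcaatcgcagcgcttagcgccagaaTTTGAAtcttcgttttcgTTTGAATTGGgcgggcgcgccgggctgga
ASPM (chr1:197146670-197146819, minus strand): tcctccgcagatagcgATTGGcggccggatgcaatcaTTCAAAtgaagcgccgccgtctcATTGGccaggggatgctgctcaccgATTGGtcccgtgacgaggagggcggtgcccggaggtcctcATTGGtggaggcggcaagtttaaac
NUSAP1 (chr15:41332731-41332880, plus strand): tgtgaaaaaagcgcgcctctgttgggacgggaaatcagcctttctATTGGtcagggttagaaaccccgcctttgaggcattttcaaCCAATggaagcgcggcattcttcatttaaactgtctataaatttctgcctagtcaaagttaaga
AURKB (chr17:8210226-8210375, minus strand): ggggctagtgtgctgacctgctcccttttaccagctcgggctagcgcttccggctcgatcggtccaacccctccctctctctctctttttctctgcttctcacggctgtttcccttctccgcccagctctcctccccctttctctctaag
CDCA8 (chr1:37692366-37692515, plus strand): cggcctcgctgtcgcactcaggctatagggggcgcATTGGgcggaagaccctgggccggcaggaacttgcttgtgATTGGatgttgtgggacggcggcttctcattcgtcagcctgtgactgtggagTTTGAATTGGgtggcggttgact
PTTG1 (chr5:160421705-160421854, plus strand): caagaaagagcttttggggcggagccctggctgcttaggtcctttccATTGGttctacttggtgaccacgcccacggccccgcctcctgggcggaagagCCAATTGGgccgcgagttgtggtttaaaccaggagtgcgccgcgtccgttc
MKI67 has 2 CHR words and 2 CCAAT words in this stretch, and 1 of the CHR words runs into a CCAAT word. ASPM has 4 CCAAT words and 1 CHR word. CDCA8 has 3 CCAAT words and 1 CHR word, which runs into a CCAAT word as in MKI67. AURKB has neither word in the 150 bases before its first listed start. Other starts of these genes were not searched, so a word missing here may stand at another start. NUSAP1 has 2 CCAAT words and no CHR word in its stretch. In the windows of 300 bases NUSAP1 has 3 CCAAT words and 1 CHR word, at base 14 after the start, and AURKB has 1 CCAAT word. PTTG1 has 3 CCAAT words, of which a pair overlaps on opposite strands, and no CHR word.

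Total counts were 40135082 to 90536476 per library, and the 35 genes took 0.136% to 0.259% of them. The lowest count of any of these genes in any library was 284, so all 35 passed the filter on low counts. SLC2A1, which encodes GLUT1 and is the target of the siRNA, stood at 22.2 to 25.7 CPM (counts scaled to library size) with non-silencing siRNA and at 6.26 to 9.05 CPM with siGlut1 in control glucose, a log2 difference of -1.58 (edgeR, SE 0.129, adjusted p = 0.000884). In high glucose the difference was -1.61 (SE 0.14, adjusted p = 0.000888), from 20.7 to 21.2 CPM down to 6.38 to 7.19 CPM. Both control glucose libraries numbered 3 lay farthest from the other libraries of their groups, with root mean square distances of 0.475 and 0.451 log2 units over all tested genes against 0.301 to 0.437 elsewhere. Endothelial markers were high, with a median RPKM of 382 for CDH5 and 191 for PECAM1. Of the markers of other cell types, some defining ones were at or near 0, with a median RPKM of 0.0227 for PDGFRB, 0 for DES, 0 for AQP4, 0 for PTPRC and 0 for CDH1. Others on the same lists were expressed. RGS5, often listed as a pericyte gene, had a median of 242 RPKM, KRT18 162, GJA1 117, TUBB3 39.6, KRT19 27.9, CD68 24.7, ACTA2 10.8, SYT1 7.14, KRT8 5.33, COL1A2 3.14 and MAP2 2.86. KRT19 was at 72.2 and 70.8 RPKM in the control glucose libraries numbered 3 and at 21.4 to 36.0 in the others.

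All 35 mitosis genes were expressed in all 11 libraries. Per length, in the deposited RPKM, their medians over the libraries ran from 4.62 for CENPE, the kinetochore motor, to 72.9 for PTTG1, the securin that holds separase inactive until anaphase. CDC20, which activates the anaphase promoting complex, had a median of 68.2 RPKM, CCNB1, the cyclin B1 that drives entry into mitosis, 50.6, the kinase PLK1 32.0 and the spindle factor TPX2 30.9. At the low end stood ASPM, a spindle pole protein, at 4.91 and the centromeric histone CENPA at 5.97. MKI67, which encodes the proliferation marker Ki-67, had 9.83, and 26 of the 35 genes lay above 10.

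The genes moved up and down together from library to library, and much of this spread lay within the groups. In control glucose with non-silencing siRNA the summed level of the 35 genes was 2236, 1639 and 2518 CPM in replicates 1, 2 and 3. With siGlut1 in control glucose it was 1763, 1369 and 2064 CPM. In high glucose it was 2219 and 2193 CPM with non-silencing siRNA (replicates 1 and 3) and 1888, 2283 and 1886 CPM with siGlut1. In both control glucose groups replicate 2 was the lowest and replicate 3 the highest, and every siGlut1 replicate lay below the non-silencing replicate with its number.

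**Figure D1:**
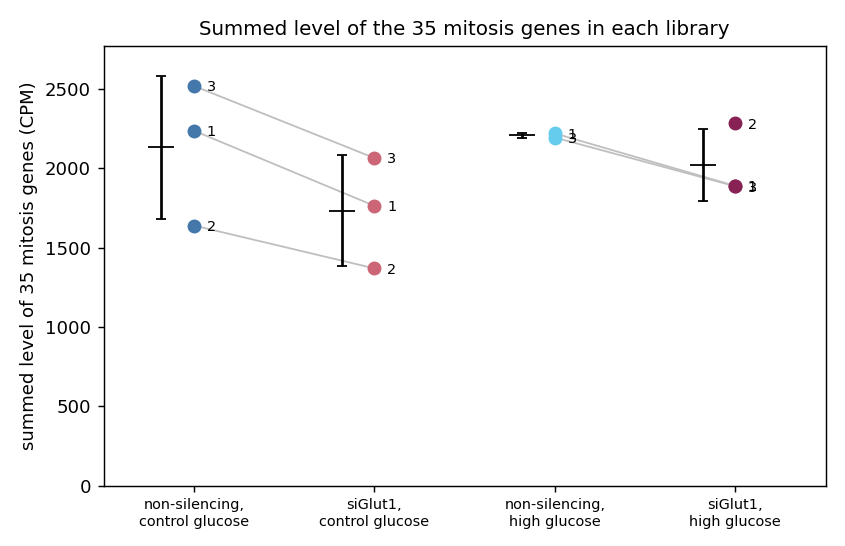
Summed level of the 35 mitosis genes (CPM, vertical axis) in each library, by group on the horizontal axis. Points are libraries with their replicate number, grey lines join the same number within a medium, and black bars give the mean and SD: 2131 ± 449 (n = 3), 1732 ± 349 (n = 3), 2206 ± 18.4 (n = 2) and 2019 ± 229 (n = 3) from left to right. The siGlut1 points lie below the points they are joined to in all 5 pairs, and the groups of each medium overlap.

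The same order held gene by gene. Replicate 2 was the lowest of its group for 35 of 35 genes with non-silencing siRNA in control glucose, where 33.3% of all tested genes had their lowest value, and for 35 of 35 with siGlut1 in control glucose, against 33.6%. Replicate 3 was the highest for 32 of 35 genes with non-silencing siRNA, against 40.7% of all genes, and for 35 of 35 with siGlut1, against 39.5%. With siGlut1 in high glucose replicate 2 was instead the highest for 35 of 35 genes, against 35.8%. Over the 595 pairs of members the correlation of their deviations from the group means across the 11 libraries had a median of 0.934 (lowest 0.564, highest 0.996), a description over libraries that share these positions. Against the mean of the set, the single genes ran from a correlation of 0.828 for MKI67 to 0.994 for CCNB2, the cyclin B2.

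**Figure D2:**
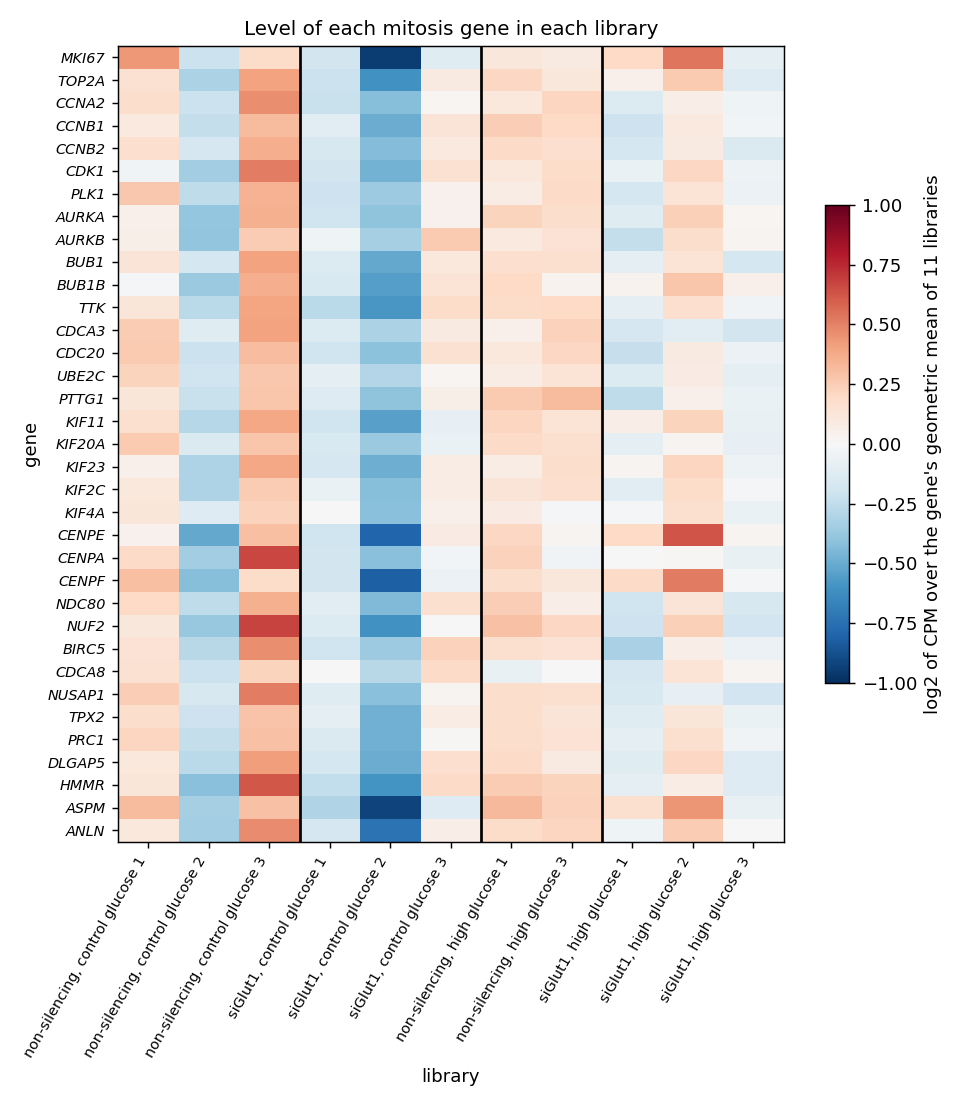
Each row is a mitosis gene and each column a library. Colour gives the log2 of the CPM over the gene's geometric mean of the 11 libraries, from blue (low) to red (high). The column of siGlut1 in control glucose, replicate 2, is blue in nearly every row and that of non-silencing siRNA in control glucose, replicate 3, red in nearly every row.

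The libraries with the lowest mitosis sums had the highest endothelial marker sums in control glucose. The sum of 12 endothelial markers was 8069, 9245 and 6127 CPM in non-silencing replicates 1, 2 and 3 and 8213, 8739 and 6866 CPM in siGlut1 replicates 1, 2 and 3, the reverse order of the mitosis sums. VWF, at 1980, 2550 and 861 CPM and at 1630, 1790 and 892 CPM in turn, was the largest part of the fall to replicate 3. Not every marker kept this order. With non-silencing siRNA ROBO4 was at 639, 621 and 527 CPM and ERG at 201, 220 and 211 CPM. The next values are sums of all 12 markers again. In high glucose it was 7099 and 7262 CPM with non-silencing siRNA and 8434, 7060 and 7423 CPM with siGlut1. The sum of 40 DNA replication genes followed the mitosis genes, at 1643, 1311 and 1889 CPM in non-silencing and 1453, 1305 and 1694 CPM in siGlut1 control glucose libraries. Of the 12 endothelial markers 0 passed with siGlut1 in control glucose, with 1 higher at an unadjusted p under 0.05, where 9.02% of all genes were, and 1 of 12 in high glucose, the VEGF receptor KDR (0.44, SE 0.110, adjusted p = 0.0479). The 10 pericyte and smooth muscle markers, of which RGS5 makes up most, summed to 1846 to 2171 CPM and 1517 to 1624 CPM in control glucose and to 2380 to 2444 CPM and 1705 to 2045 CPM in high glucose, for non-silencing siRNA and siGlut1 in turn. RGS5 was lower with siGlut1 in control glucose (-0.34, SE 0.0811, adjusted p = 0.0484), and TUBB3, of the neuron list, higher in high glucose (0.66, SE 0.157, adjusted p = 0.0407). The fibroblast list summed to at most 45.86 CPM and the microglia and leukocyte list to at most 73.71 CPM in any library, and 0 of their genes passed. The neuron list summed to 138.8 to 145.3 CPM with non-silencing siRNA and 182.5 to 188.6 CPM with siGlut1 in control glucose. In high glucose it summed to 116.5 to 136.1 and 150.2 to 180.4 CPM, so the sums did not overlap in either medium. TUBB3 was the largest part, at 73.9 to 83.6 against 111 to 125 CPM in control glucose. SYT1 (31.2 to 39.1 against 35.8 to 37.7 CPM) and MAP2 (22.7 to 32.2 against 25.6 to 38.7 CPM) overlapped there. In high glucose SYT1 overlapped and MAP2 did not. The epithelium list summed to 276.5 to 389.1 CPM and the astrocyte list to 346.4 to 445.3 CPM over all libraries, and 0 of their genes passed in either siRNA comparison. The part of these marker levels and of the common spread in the comparisons below was not tested.

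The first comparison was siGlut1 against non-silencing siRNA in control glucose, which asks how the endothelial transcriptome differs when GLUT1 is reduced. All 35 mitosis genes had a lower mean with siGlut1, where 51.4% of all tested genes did, with a median log2 fold change of -0.29 against -0.0067 for all genes. The lowest was ASPM at -0.54 and the value nearest 0 was that of AURKB, the kinase of the chromosomal passenger complex, at -0.022. In the edgeR fit of all 4 groups 0 of the 35 passed an adjusted p of 0.05, where 2.96% of the 14324 genes tested did, and 7 were lower at an unadjusted p under 0.05, where 8.43% of all genes were. DESeq2 also called 0 of the 35, where it called 7.31% of all genes. The groups overlapped for every one of the 35 genes, while 9.6% of all genes were lower without overlap.

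The same difference was taken between libraries with the same replicate number. Between replicates numbered 1, 35 of 35 genes were lower with siGlut1 (median log2 difference -0.32), where 49.3% of all genes were. Between replicates numbered 2 it was 34 of 35 (median -0.23, against 49.6%), and between replicates numbered 3 again 34 of 35 (median -0.28, against 50%), with AURKB the exception both times. Across all genes, same-numbered control glucose libraries deviated together, with correlations of 0.255, 0.615 and 0.737. Both libraries numbered 1 correlated more with replicate 2 of the other group (0.273 and 0.313) than with each other. With the replicate number as a block in the fit of all 4 groups, 0 of the 35 genes passed, where 3.92% of all genes did. That block gives each replicate number the same effect in both media. The members were lowest in siGlut1 replicate 2 of control glucose but highest in siGlut1 replicate 2 of high glucose. Over all genes these libraries correlated at -0.451, so this fit does not test the control glucose pairs alone. A fit of these 6 libraries alone with the block, which was added after the data were seen and has 2 residual degrees of freedom, called 24 of the 35 lower, where 6.82% of all genes were lower, and 0 higher. Without replicate 1, 2 or 3 in both groups this blocked fit called 8, 14 and 20 of the 35, with 1 residual degree of freedom each. Of all genes 3.73%, 3.14% and 6.33% were called lower. With so few residual degrees of freedom, these edgeR p-values lean on spread shared over genes. MKI67 reached an adjusted p of 4.36e-16 in the blocked fit without replicate 3. They are not comparable with those of the fit of all 4 groups.

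Among the proliferation mark and chromosome structure genes, MKI67 stood at 163, 104 and 137 CPM in non-silencing replicates 1, 2 and 3 and at 106, 62.4 and 111 CPM in siGlut1 replicates. The lowest library was siGlut1 replicate 2, and the highest siGlut1 library lay above the lowest non-silencing one. Its log2 fold change was -0.53 (SE 0.224, adjusted p = 0.243), and -0.55 in the blocked fit of the 2 groups (adjusted p = 0.00078, 2 residual degrees of freedom). TOP2A, the topoisomerase that untangles sister chromatids, had 152, 110 and 181 CPM against 118, 90.1 and 146 CPM (log2 fold change -0.33, SE 0.190, adjusted p = 0.416).

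All 11 cyclins, kinases and related genes had negative values, from -0.37 for the cyclin CCNA2 to -0.022 for AURKB. CCNB1 was at 116, 91.5 and 135 CPM with non-silencing siRNA and 99.7, 76.5 and 118 CPM with siGlut1, a difference of -0.23 (SE 0.161, adjusted p = 0.515). CDK1, the kinase that cyclin B activates, was at 40.9, 32.9 and 59.8 CPM against 36.9, 30.1 and 46.4 CPM (-0.24, SE 0.200, adjusted p = 0.585). Replicate 3 of the non-silencing group held the highest CDK1 level, and without it the difference was 0.031. AURKB, at 24.8, 18.1 and 28.4 CPM against 23.1, 18.9 and 28.6 CPM, was nearly level between the groups (adjusted p = 0.970), and its partner in the passenger complex CDCA8 was at 39.8, 30.8 and 41.8 CPM against 35.8, 29.6 and 41.0 CPM (-0.083, SE 0.138, adjusted p = 0.807).

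The 3 anaphase genes lay close together, with CDC20 at -0.27, the ubiquitin-conjugating enzyme UBE2C at -0.23 and PTTG1 at -0.22. Of the 6 kinesin motors KIF20A, which acts in cytokinesis, had the smallest adjusted p of the whole set. It was at 88.4, 66.8 and 89.1 CPM in non-silencing and 66.2, 56.9 and 70.4 CPM in siGlut1 libraries (-0.34, SE 0.112, adjusted p = 0.136). Its groups overlapped only through non-silencing replicate 2. KIF11, the motor that separates the spindle poles, had -0.38, and KIF2C, which takes microtubules apart, -0.16.

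The centromere and kinetochore genes spread from -0.44 for CENPA to -0.083 for CDCA8, with NUF2, a part of the microtubule-binding NDC80 complex, at -0.44. The 7 spindle and cytokinesis genes had the lowest median of the larger groups, -0.35. ASPM was at 63.4, 40.6 and 62.6 CPM with non-silencing siRNA and 41.4, 26.8 and 46.7 CPM with siGlut1 (-0.54, SE 0.214, adjusted p = 0.210; blocked fit of the 2 groups -0.55, adjusted p = 0.000402). NUSAP1, which binds spindle microtubules, was at 51.5, 38.9 and 62.0 CPM against 40.0, 32.6 and 44.2 CPM (-0.39, SE 0.150, adjusted p = 0.197). In both genes the non-silencing replicate 2 lay among the siGlut1 values.

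**Figure D3:**
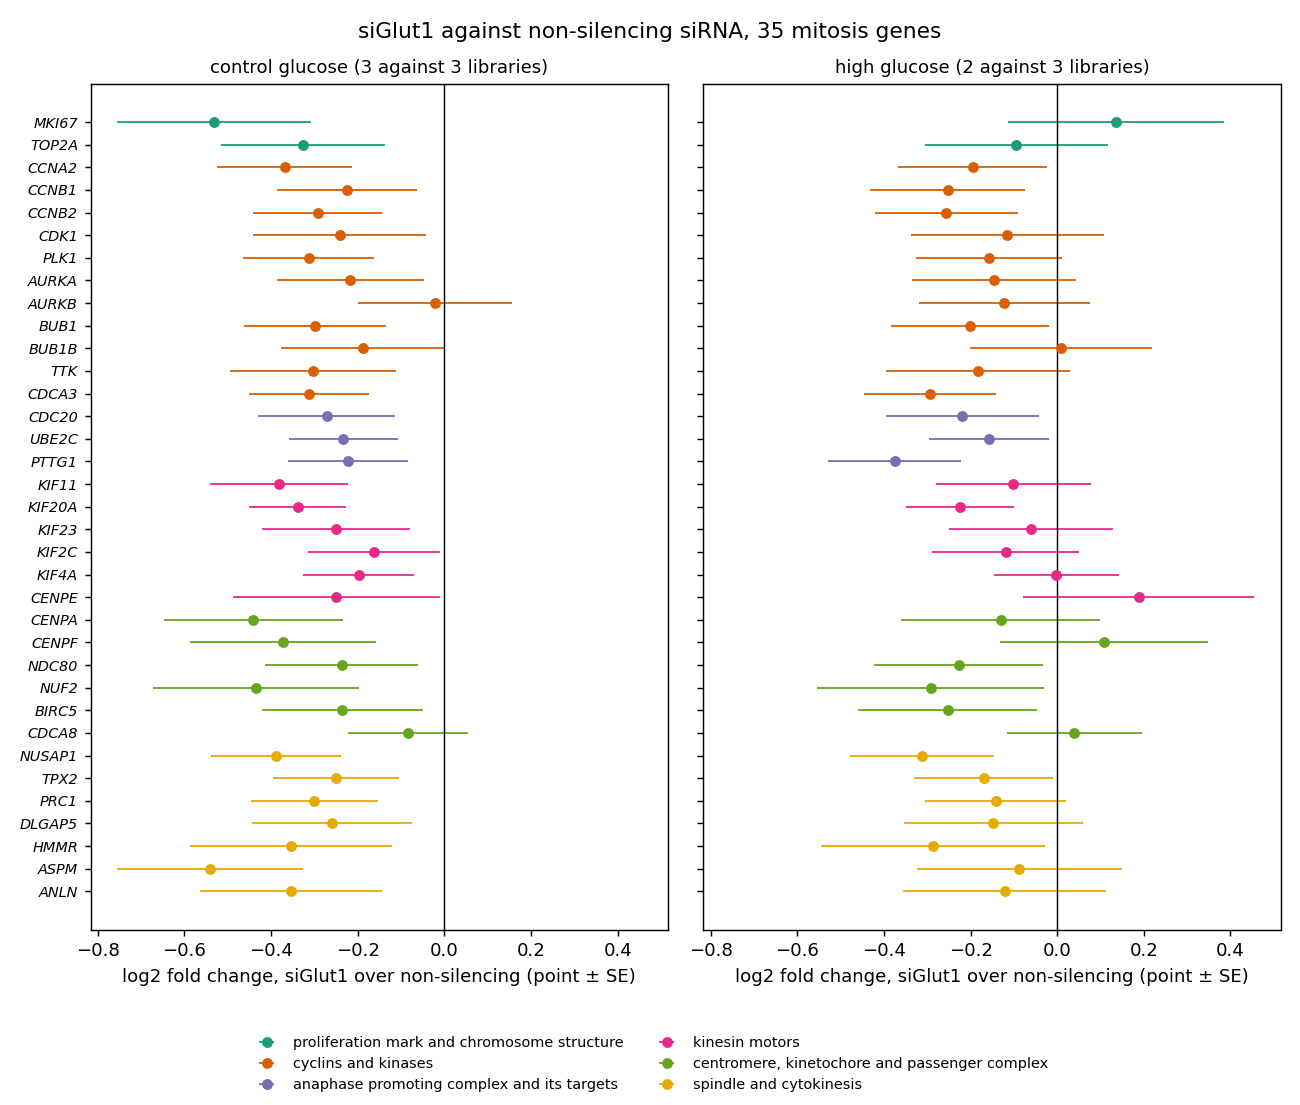
Log2 fold change of siGlut1 over non-silencing siRNA for the 35 mitosis genes (rows, coloured by role) in control glucose (left) and high glucose (right). Points are the edgeR estimates and bars 1 SE. All 35 points lie below 0 on the left, from -0.54 to -0.022, and 30 on the right, from -0.38 to 0.19.

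Leaving out single libraries moved the size of the shift. The median of the 35 genes was -0.14 without non-silencing replicate 3, -0.15 without siGlut1 replicate 2 and -0.43 without siGlut1 replicate 3 or without non-silencing replicate 2. Without both libraries numbered 3 it was -0.28, with 0 of the 35 past the threshold, where 1.74% of all genes were. Without non-silencing replicate 2 the edgeR fit called 2 of the 35 lower, KIF20A and NUSAP1, where 2.18% of all genes passed in either direction.

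The second comparison was siGlut1 against non-silencing siRNA in high glucose. Here 30 of the 35 genes had a lower mean with siGlut1, where 50.1% of all genes did, and the median was -0.15. In edgeR 0 of the 35 passed, where 4.11% of all genes did, 1 was lower at an unadjusted p under 0.05, where 9.5% were, and DESeq2 called 0, where it called 9.72% of all genes. The groups did not overlap, with siGlut1 lower, for 13 of the 35, where 22% of all genes showed this with 2 against 3 libraries.

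PTTG1 had the largest difference, with 63.8 and 66.5 CPM in non-silencing and 44.7, 55.1 and 50.8 CPM in siGlut1 libraries (-0.38, SE 0.154, adjusted p = 0.195). All siGlut1 libraries lay below both non-silencing ones. NUSAP1 was at 49.2 and 48.5 CPM against 39.0, 41.0 and 38.1 CPM (-0.31, SE 0.166, adjusted p = 0.314), again without overlap. In a fit of these 5 libraries alone PTTG1 (adjusted p = 0.0386) and NUSAP1 (adjusted p = 0.0309) passed, where 8.28% of all genes did. CCNB1 was at 128 and 124 CPM against 93.8, 116 and 106 CPM (-0.25, SE 0.178, adjusted p = 0.463), and CDK1 at 45.1 and 47.6 CPM against 39.9, 48.2 and 40.3 CPM (-0.12, SE 0.223, adjusted p = 0.824), where siGlut1 replicate 2 was the highest of the 5.

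At the other end stood long genes. MKI67 was at 130 and 128 CPM with non-silencing siRNA and 138, 175 and 113 CPM with siGlut1 (0.14, SE 0.250, adjusted p = 0.815), and CENPE at 46.9 and 41.4 CPM against 46.7, 62.9 and 41.5 CPM (0.19, SE 0.267, adjusted p = 0.751). In both, siGlut1 replicate 2 was the highest library of the series, and without it the value of MKI67 was -0.043 and that of CENPE -0.0039. TOP2A was at 158 and 148 CPM against 142, 164 and 125 CPM (-0.095, SE 0.211, adjusted p = 0.848). Without siGlut1 replicate 2 all 35 genes had a lower mean with siGlut1 and the median was -0.25. Between same-numbered libraries 33 of 35 genes were lower in replicate 1 (median -0.25, against 50.4% of all genes) and 32 of 35 in replicate 3 (median -0.23, against 50.9%).

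**Figure D4:**
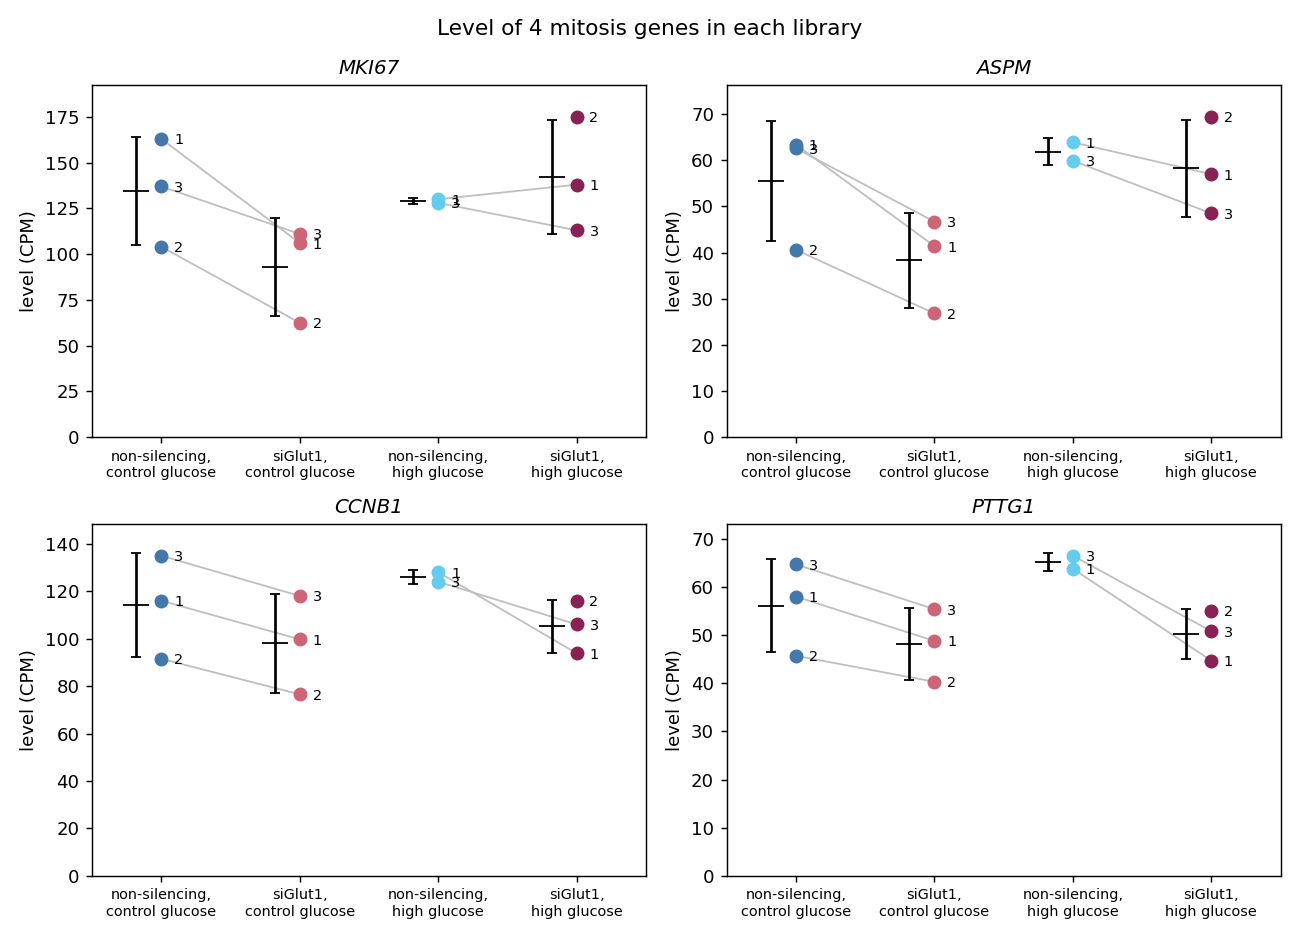
Level (CPM, vertical axes from 0) of MKI67, ASPM, CCNB1 and PTTG1 in each library, by group. Points carry the replicate number, grey lines join the same number within a medium, and black bars give mean and SD. In high glucose the siGlut1 points of PTTG1 (44.7 to 55.1) lie below both non-silencing points (63.8 and 66.5), while those of MKI67 (113 to 175) surround them.

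High against control glucose left the mitosis genes near level in cells with non-silencing siRNA. Their median was 0.048, 26 of 35 had a higher mean, where 54% of all genes had a lower one, and the values ran from -0.13 for CENPA to 0.21 for PTTG1. In edgeR 0 of the 35 and 0% of all genes passed, 0 of the 35 reached an unadjusted p under 0.05, where 3.23% of all genes were lower and 2.18% higher, and DESeq2 called 0 of the 35, where it called 0.194% of all genes. The groups overlapped for all 35, where 8.61% of all genes were higher and 9.23% lower without overlap. CENPA was at 10.4, 7.19 and 14.5 CPM in control and 10.7 and 8.93 CPM in high glucose, and CDCA8 (-0.10) at 34.0 and 36.0 CPM in high glucose. AURKA, the spindle pole kinase, was at 48.4, 35.7 and 59.7 CPM in control and 54.5 and 52.6 CPM in high glucose (0.16, SE 0.189, adjusted p = 0.971). For these 3 genes both high glucose libraries lay inside the range of the control libraries. The sign of the median rests on single libraries: it was -0.097 without control replicate 2 and 0.20 without both control replicates numbered 3.

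With siGlut1, 33 of the 35 genes had a higher mean in high than in control glucose, where 53.4% of all genes had a lower one, and the median was 0.14. In edgeR 0 of the 35 passed, where 0.014% of all genes did, 4 were higher at an unadjusted p under 0.05, where 7.95% were, and DESeq2 called 0, where it called 3.03% of all genes. The groups did not overlap, with high glucose higher, for 4 genes (KIF11, CENPF, ASPM and MKI67), where 10.9% of all genes showed this. MKI67 stood at 106, 62.4 and 111 CPM in control and 138, 175 and 113 CPM in high glucose (0.61, SE 0.224, adjusted p = 0.247), and ASPM at 41.4, 26.8 and 46.7 CPM against 57.0, 69.4 and 48.5 CPM (0.61, SE 0.214, adjusted p = 0.234). The lowest and the highest library of both genes were the replicates numbered 2 of the 2 media. CDCA3 (-0.037), a trigger of mitotic entry, was at 12.6, 11.1 and 14.7 CPM against 12.3, 12.8 and 12.2 CPM, and BIRC5 (-0.0093), the survivin of the passenger complex, at 45.4, 40.5 and 61.2 CPM against 41.6, 54.4 and 49.9 CPM. Without siGlut1 control replicate 2 the median of the 35 was 0.032, and without both control libraries numbered 3 it was 0.28.

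The difference between the siRNA effects in the 2 media was tested as an interaction. In edgeR 0 of the 35 and 0% of all genes passed, 0 of the 35 reached an unadjusted p under 0.05, where 0.88% of all genes were lower and 1.87% higher, and DESeq2 called 0 of the 35 and 0% of all genes. Of the 35, 31 had a positive value, that is a less negative siRNA effect in high glucose, with a median of 0.12, and 49.2% of all genes had a negative one. MKI67 had the largest at 0.67 (SE 0.337, unadjusted p = 0.072, adjusted p = 0.999). Averaged over both media, the effect of siGlut1 was negative for all 35 genes (median -0.24), where 50.9% of all genes were, and 1 of the 35 passed lower in edgeR, where 14.4% of all genes passed and 6.49% were lower. That gene was KIF20A (-0.28, SE 0.0838, adjusted p = 0.0448), which stood at 83.9 and 82.3 CPM in non-silencing and 68.8, 75.2 and 69.4 CPM in siGlut1 high glucose libraries. Leaving out non-silencing control replicate 2 raised the count to 10 of the 35, where 12.9% of all genes passed, and leaving out siGlut1 control replicate 3 to 4, where 12.4% did. Of the other settings, 5 called 2 to 5 of the 35: 2 without a filter (10.4% of all genes), 2 with at least 1 CPM in 6 libraries (17.1%), 2 with halved counts (15.5%), 4 with all 12 columns (22.6%) and 5 without both control libraries numbered 3 (17.8%). The KIF20A call ended on leaving out any of 9 of the 11 libraries, with adjusted p of 0.0639 to 0.134, and with the replicate block (adjusted p = 0.0564). DESeq2 called 4 (CDCA3, PTTG1, KIF20A and NUSAP1), where 19.7% of all genes passed. Averaged over both siRNAs, high against control glucose called 0 of 35, where 0.412% of all genes passed, and ASPM alone reached an unadjusted p under 0.05 (0.38, SE 0.159, adjusted p = 0.258), where 7.44% of all genes were higher. DESeq2 called 0, where it called 3.8% of all genes. Of the 35, 31 were positive, where 53.5% of all genes were negative. Without both control libraries numbered 3 this comparison called 9 of the 35 higher, where 18.1% of all genes passed.

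Gene length ran alongside these values in high glucose. The 4 longest members are MKI67 (12495 bases in the deposited table), ASPM (10888), CENPF (10296) and CENPE (8612), and the shortest is PTTG1 (712). Over the 35 genes the rank correlation of length with the log2 fold change was 0.673 for siGlut1 in high glucose and 0.753 for high glucose with siGlut1, against 0.238 and 0.378 over all tested genes. In control glucose it was -0.289 for siGlut1, against -0.0604. Over all genes the median log2 fold change ran, from the shortest to the longest decile of genes, from -0.11 to 0.14 in the first of these comparisons and from -0.16 to 0.18 in the second. The 3 siGlut1 high glucose libraries had the highest rank correlations of length with deviation from the mean of all libraries (0.150 to 0.400, against -0.232 to 0.0563 in the others). With the trend of all genes on length taken out, the median of the members was -0.15 for siGlut1 in high glucose with 33 of 35 below 0, MKI67 was at -0.094, and 0 passed, where 3.55% of all genes did. For high glucose with siGlut1 it was 0.19, with 0 of 35 below 0 and 0 past the threshold, where 0.014% of all genes passed. The correlations were then 0.173 and 0.449.

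**Figure D5:**
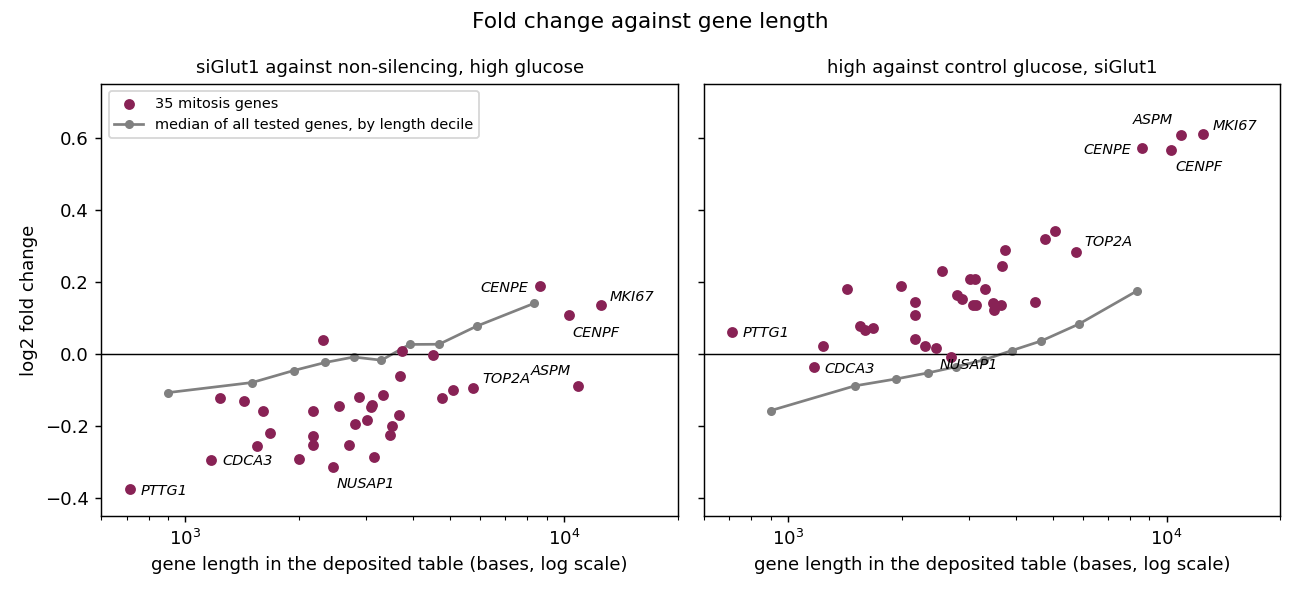
Log2 fold change (vertical axes) against gene length in bases (horizontal axes, log scale) for siGlut1 against non-silencing siRNA in high glucose (left) and high against control glucose with siGlut1 (right). Purple points are the 35 mitosis genes and the grey line joins the medians of all tested genes by length decile. MKI67, ASPM, CENPF and CENPE, the longest members, lie at 0.57 to 0.61 on the right, above the grey line, and most members lie below it on the left.

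Other genes of the division programme were described from lists of non-members. With siGlut1 in control glucose, 26 of 29 further kinetochore and checkpoint genes had negative values (median -0.24), all 21 further kinesins and cytokinesis genes (median -0.30), 15 of 17 condensin and cohesin genes (median -0.13) and 37 of 40 DNA replication genes (median -0.14), where 51.4% of all genes were negative. In edgeR 0 genes of these 4 lists passed. At an unadjusted p under 0.05, 1 kinetochore gene was higher, where 9.02% of all genes were, while 2 of 29 kinetochore, 6 of 21 kinesin and cytokinesis, 2 of 17 condensin or cohesin and 2 of 40 replication genes were lower, where 8.43% of all genes were. The kinetochore and replication counts lie below that share. The list of the anaphase promoting complex holds its subunits, which are not confined to mitosis, and FZR1, FBXO5 and UBE2S, which are not subunits. Its 16 genes had a median of 0.0012 with 8 below 0. In high glucose the medians of the same 5 lists were -0.052, -0.099, -0.038, 0.0061 and -0.040.

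Of 19 further genes of entry into mitosis, CDC25B, the phosphatase that activates CDK1, fell with siGlut1 in both media. It was at 97.3, 103 and 90.3 CPM with non-silencing siRNA and 78.4, 83.1 and 75.9 CPM with siGlut1 in control glucose (-0.29, SE 0.0681, adjusted p = 0.0471). In high glucose it was at 88.0 and 90.8 CPM against 69.0, 66.1 and 71.2 CPM (-0.38, SE 0.0756, adjusted p = 0.0229). The groups did not overlap in either medium, and CDC25B did not follow the replicate order of the members, since its non-silencing replicate 2 was the highest. The control glucose call is near the threshold and ended on leaving out any of 10 of the 11 libraries (adjusted p = 0.0657 to 0.148) with the replicate block (adjusted p = 0.0535), without a filter on low counts (0.0588) and in a fit of the 6 libraries alone (0.183). The high glucose call ended on leaving out any of the 5 libraries of that medium (adjusted p = 0.0584 to 0.181). CCND1, the G1 cyclin D1, fell in control glucose from 610, 541 and 607 CPM to 428, 388 and 440 CPM (-0.49, SE 0.0915, adjusted p = 0.0203). This call ended without non-silencing control replicate 1 (adjusted p = 0.0646), without siGlut1 control replicate 1 (0.06) or replicate 2 (0.0697), and in a fit of the 6 libraries alone (0.0645). In high glucose CCND1 was at 520 and 623 CPM against 401, 472 and 447 CPM (-0.38, SE 0.101, adjusted p = 0.0619). Over the 8 lists, CDC25B and CCND1 were the only genes past the threshold in control glucose, where 2.96% of all tested genes passed. In high glucose CDC25B alone passed, where 4.11% of all tested genes did. The 13 listed G1 cyclins, their kinases (CDK2, CDK4 and CDK6) and kinase inhibitors had a median of -0.077 in control glucose with 7 below 0.

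The factors that act on mitotic promoters had 16 of 23 values below 0 in control glucose with a median of -0.084, and 0 passed in edgeR, with 3 lower at an unadjusted p under 0.05, where 8.43% of all genes were. FOXM1 was at 108, 86.6 and 110 CPM with non-silencing siRNA and 94.7, 74.4 and 92.3 CPM with siGlut1 in control glucose (-0.23, SE 0.106, adjusted p = 0.303). MYBL2 was at 61.6, 46.1 and 63.3 CPM against 49.8, 38.1 and 49.1 CPM (-0.32, SE 0.131, adjusted p = 0.225). The blocked fit of the 2 control glucose groups called both lower, FOXM1 at -0.22 (adjusted p = 0.0309) and MYBL2 at -0.32 (adjusted p = 0.00848). Without replicate 1, 2 or 3 in both groups it still called MYBL2 (adjusted p = 0.0474, 0.041 and 0.0119) but no longer FOXM1. In high glucose FOXM1 had -0.11 and MYBL2 -0.22, and the blocked fit of those 2 groups, with 1 residual degree of freedom, called MYBL2 (-0.27, adjusted p = 0.00286). CDKN1A, the p21 inhibitor of cyclin-dependent kinases, was at 795, 836 and 687 CPM against 813, 921 and 805 CPM in control glucose (0.13, SE 0.0879, adjusted p = 0.485) and had -0.0025 in high glucose. Within both groups its highest library was replicate 2, where the members were lowest.

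Likeness to the set was taken from deviations from the group means over the 11 libraries, so differences between groups were removed. Among 11447 non-members with a mean of at least 2 CPM, the 10 most like the set had Pearson correlations of 0.985 to 0.995. They were NCAPG2, TNFSF4, MCM4, NCAPG, ETV5, HAUS6, CSE1L, FANCI, POLE2 and RACGAP1. NCAPG and NCAPG2 are condensin subunits, MCM4 is part of the replicative helicase, POLE2 a subunit of DNA polymerase epsilon, HAUS6 a part of the augmin complex of the spindle, and RACGAP1 a partner of KIF23, the motor of the central spindle. TNFSF4 encodes a ligand of the TNF family and ETV5 an ETS transcription factor. The likeness rests on 11 libraries and on the replicate order they share.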

How the data were processed

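Both TruSeq stranded mRNA and SMARTER library kits are named in the labels' protocols, with no assignment to libraries. Per the file headers, the authors deposited 1 table with a raw read count and an RPKM for each gene and sample. The submitters' processing notes name hg19 and DESeq2. For the aligner, the counting tool and the gene annotation nothing is given in the sources used here. All deposited counts are even numbers, and halving them was tried. The deposited RPKM values served for levels per length. A count column equal to the mean of its 2 group mates in 23397 of 23398 entries (within 1e-06 counts) was left out, and 0 columns lacked a sample.

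Counts of 23274 entries (124 on chromosome Y or XIST were left out) were filtered with filterByExpr, which kept 14324, scaled by TMM and fitted for all 4 groups in edgeR 4.0.16 (R 4.3.3, quasi-likelihood, two-sided, 7 residual degrees of freedom). P-values were adjusted by Benjamini-Hochberg over all genes tested, with a threshold of 0.05. SE is the log2 fold change over the square root of F, CPM uses TMM sizes, and log values a prior count of 2. The fit was tested on simulated counts, drawn independently for each gene and library. They held no replicate spread shared between genes, so the simulation does not cover the spread that the members share. The 35 members, the gene lists and the rules for naming genes were chosen with earlier results of these data known. Any member may be named. Values per library are given for MKI67, TOP2A, CCNB1, CDK1, members past the threshold, and the 2 largest and 2 smallest fold changes of each pairwise comparison. FOXM1, MYBL2, CDKN1A, SLC2A1, and up to 4 genes past the threshold per list were added, with the 10 non-members most like the set. Other members given per library or by value were chosen after their values were seen.

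The replicate numbers in control glucose were taken as pairs because same-numbered libraries deviated together over all genes (correlations 0.255, 0.615 and 0.737). The pair numbered 1 was not the closest match from either side. Non-silencing replicate 1 correlated slightly more with siGlut1 replicate 2 (0.273), and siGlut1 replicate 1 more with non-silencing replicate 2 (0.313). In high glucose only 2 pairs exist (0.426 and 0.376). Alternatives were the replicate block, DESeq2 1.42.0, its size factors, library totals, other filters, removal of the length trend, only the groups compared, all 12 columns, and leaving libraries out.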

Additional observations from a re-analysis of the deposited data

How the results depend on the processing

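For the siRNA comparison in control glucose, 0 members passed under every planned setting except the fit without non-silencing replicate 2 (0 to 2 when single libraries were left out). The median of the members stayed below 0 in both siRNA comparisons under every setting tried, from -0.14 to -0.43 in control and -0.074 to -0.26 in high glucose. For glucose with non-silencing siRNA its sign changed between settings. Over all genes, calls in the siRNA comparison in control glucose, main count 424, numbered 1002 with DESeq2, 247 without both control libraries numbered 3, 825 with all 12 columns and 70 with only the groups compared. In high glucose, main count 589, they numbered 1265, 1672, 1807 and 1157 in the same order. For glucose with non-silencing siRNA, main count 0, they were 30, 48, 11 and 0, and with siGlut1, main count 2, 383, 734, 37 and 0. When single libraries were left out, calls ranged over 135 to 342, 6 to 1079, 0 to 2 and 0 to 17 in these 4 comparisons. PTTG1 and NUSAP1, 2 members, passed in high glucose with only the groups compared.

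The replicate block changed no count of members in the fit of all groups other than the siGlut1 average, which went from 1 to 0. That block gives each replicate number the same effect in both media, although the replicate order of the members differed between them. In the fits of only 2 groups with the block, 24 of the 35 members and 1890 of 13827 genes passed in control glucose. In high glucose 27 of the 35 members and 3805 of 13969 genes passed. There replicate 2 has no partner, 1 residual degree of freedom remains and the pairing rests on 2 pairs. Leaving out replicate 1, 2 or 3 from both control glucose groups gave 8, 14 and 20 members. Over all genes the calls were then 1064 of 13994, 942 of 13893 and 1606 of 13863. The siGlut1 average called 4 members with DESeq2, 2 without a filter, 2 with at least 1 CPM in 6 libraries, 5 without both libraries numbered 3, 4 with all 12 columns, 2 with halved counts and 0 to 10 with single libraries left out, where 10.4% to 22.6% of all genes passed in the named settings. The glucose average called 9 without both libraries numbered 3. The causes were not tested.

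Several values changed sign. In control glucose, AURKB was at 0.0339 in the blocked fit of 2 groups without replicate 1. With siGlut1 in high glucose, TOP2A was at 0.0102 with the replicate block, CDKN1A at 0.00125 without a filter and 0.0245 with the length trend removed, MKI67 at -0.094 with the trend removed and -0.0607 in the blocked fit of 2 groups, and CENPE at -0.0137 in that fit. For glucose with non-silencing siRNA, TOP2A was at -0.0131 with the block and CENPA at 0.15 without both libraries numbered 3. For glucose with siGlut1, BIRC5 was at 0.0158 with the block, 0.0271 with the trend removed, 0.189 without both libraries numbered 3 and 0.000743 with halved counts. CDCA3 was at 0.0831 with the trend removed and 0.0806 without both libraries numbered 3. When single libraries were left out, the ranges that crossed 0 were, for siGlut1 in control glucose, CDK1 -0.415 to 0.0307, AURKB -0.185 to 0.127 and CDCA8 -0.202 to 0.0312. For siGlut1 in high glucose they were MKI67 -0.0426 to 0.276, CENPE -0.00387 to 0.31 and CDKN1A -0.0868 to 0.0969. For glucose with non-silencing siRNA they were MKI67 -0.203 to 0.114, TOP2A -0.107 to 0.223, CDK1 -0.111 to 0.327, AURKA -0.00215 to 0.348 and CENPA -0.334 to 0.155. For glucose with siGlut1 they were CCNB1 -0.0368 to 0.259, CDCA3 -0.124 to 0.0725 and BIRC5 -0.124 to 0.181.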
